A study of Mus musculus with 9 samples.

Results

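The RNA levels of 10 genes of the AP-1 family of transcription factors were followed in sorted pancreatic ductal adenocarcinoma (PDAC) cells with and without Yap. They were Fos, Fosb, Fosl1, Fosl2, Jun, Junb, Jund, Atf3, Batf3 and Maff, chosen by symbol, and they were 10 of the 47643 Ensembl genes with a row in the count files. The study asked how advanced PDAC cells outgrow the loss of Yap, a transcriptional coactivator that works with TEAD factors. In cultured primary PDAC lines, Yap-independent ones among them, it followed Jun protein and the AP-1 motif.

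AP-1 is a dimer of basic leucine zipper (bZIP) proteins. Jun proteins pair with each other or with Fos proteins, and the ATF, BATF and small MAF proteins join the same dimer network. Fos, Fosb, Jun, Junb and Atf3 are immediate early genes, which are switched on within minutes by growth factors, MAP kinase signaling, stress and the handling of tissue. AP-1 is a main nuclear output of MAP kinase signaling in tumor cells and shares many enhancers with Yap and TEAD.

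KPF mice carried, among their alleles, Trp53 frt/+, Pdx-Flp and R26 FSF-CreER/Dual. KPYYF mice carried the same alleles and in addition Yap flox/flox. In both, Flp from the Pdx1 promoter of pancreatic cells removed the frt copy of Trp53 and switched on CreER and GFP. A tamoxifen (TAM) diet given once tumors were palpable let CreER delete floxed Yap and exchange GFP for tdTomato (Tm). RNA came from 6 libraries of GFP+ cells of KPF mice and 3 libraries of Tm+ cells of KPYYF mice. Per the study, the Tm+ cells without Yap came from relapsed nodules, which arose after extended TAM treatment. The study states that the sampled mice of both groups were TAM-treated, and the length of treatment for each is not given in the sources used here. Genotype, Yap status, recombination by CreER, reporter color and relapse thus changed together and cannot be told apart. The study used both sexes, kept mice off TAM in early life and took young to adult mice, with the age and sex of each sampled mouse not given in the sources used here. Reads of Xist, used below as a sign of sex, numbered 71 to 159 in KPF libraries 4269, 4515 and 4601. They numbered 5878 to 10933 in the other KPF libraries and 3452 to 16108 in KPYYF libraries, so the groups were not balanced in it. A limit of 1000 Xist reads drops KPF libraries only. Libraries 4504h and 4504s of the KPF group bear one mouse number, and p values measure the spread between these libraries. Tumors were digested with collagenase and DNase and then trypsin, with warming, before the sort, and the same steps served both groups. Each library is named below by its mouse number.

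Yap1, the deleted gene, was at 41.8 to 151 CPM (counts brought to one common library size) in the KPF group and at 0.712, 2.84 and 7.12 CPM in KPYYF libraries. Reads on genes numbered 8264587 to 9635514 in KPF and 8116539 to 8725132 in KPYYF libraries, and 3 counts, the most that a count of 0 allows for, equal 0.292 to 0.437 CPM. All 8 ductal epithelial markers had counts in every library, with summed levels of 3507 to 9161 CPM in KPF and 622 to 1879 CPM in KPYYF libraries. By edgeR (quasi-likelihood test, p values adjusted over all tested genes as Benjamini and Hochberg), 3 of the 8 (Krt18, Cdh1 and Muc1) were lower in KPYYF. Of all 14105 genes tested, 0.794% were. All 8 markers had a log2 fold change of KPYYF against KPF below 0, with a median of -2.56. At an adjusted p under 0.05, DESeq2 called 6 of the 8 lower, against 6.58% of all genes, and limma-voom 4, against 0.312%. KPF library 4601 stood apart by its macrophage and lymphoid markers, which summed to 7238 CPM against 391 to 1224 CPM in the other 5 and 323 to 676 CPM in the KPYYF group. Libraries 4504s (KPF) and 4449 (KPYYF) had the most acinar enzyme RNA, 6940 and 2379 CPM, against at most 367 CPM elsewhere. In bulk RNA, fewer cells of a type and less RNA per cell cannot be told apart.

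All 10 genes had enough reads to be tested. The log2 fold change of KPYYF against KPF was below 0 for 9 of the 10 and above 0 for Fosl1, and its median was -0.51, where the median of all 14105 genes tested was -0.07 and 53.3% were below 0. With an adjusted p under 0.05, 1 of the 10 (Maff) was lower in KPYYF, where 0.794% of all tested genes were lower, and 0 were higher, where 0.305% of all genes were. By an unadjusted p under 0.05, 2 of the 10 (Jund and Maff) were lower and 0 higher, against 10% and 6.1% of all genes. With a change over 2-fold as well, the limits that the study's methods set on DESeq2 results, here put on edgeR's values, the same 2 were lower and 0 higher, against 9.2% and 4.2% of all genes. In this pair all KPYYF libraries lay below all KPF libraries, as they did in 5.18% of all genes, and 0 members lay wholly above, against 3.92% of all genes. The Wald test of DESeq2 called the same 2 lower, against 6.58% of all genes, and 0 higher, against 1.91%. limma-voom called 0 lower and 0 higher, against 0.312% and 0.305% of all genes.

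**Figure D1:**
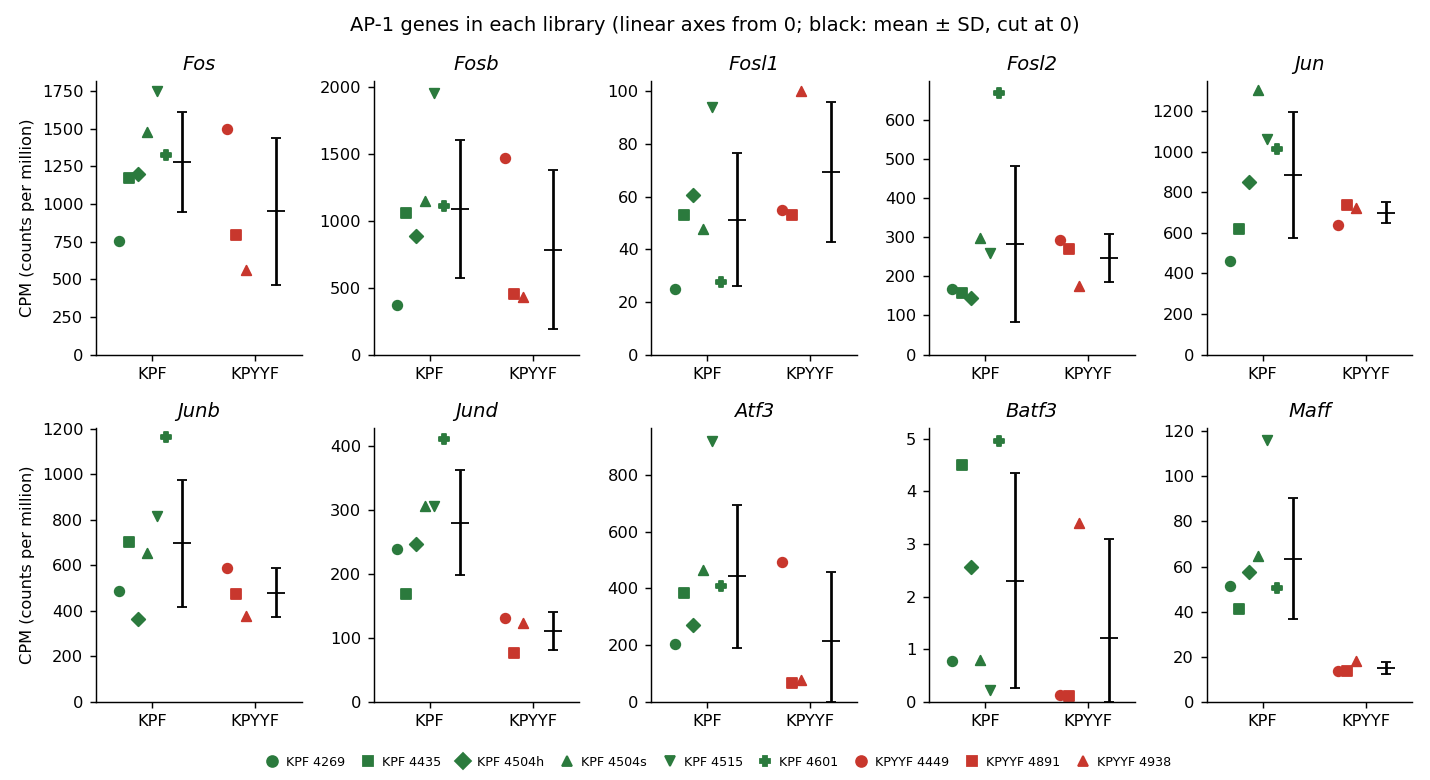
Level in CPM of each of the 10 AP-1 genes (vertical axes, linear from 0) in the 6 KPF libraries (green) and 3 KPYYF libraries (red), with 1 symbol per library and the mean and SD of each group in black, cut at 0. The 3 KPYYF libraries lie below all KPF libraries for Jund and Maff, and KPYYF library 4449 lies with the upper KPF libraries for Fos, Fosb and Atf3.

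The promoters of Jun and Maff are shown because Jun is the member the study follows as a protein, because Maff is the member whose RNA passed the adjusted test, and because only these among the promoters searched held an AP-1 or CRE-like motif. Each run gives the 250 bases before a transcription start, 5′ to 3′ on the gene's strand, from RefSeq on GRCm38.p6, and capitals mark the motif. The Jun promoter lies at chr4:95052223-95052472 on the minus strand, and the Maff promoters of a middle and a downstream start lie at chr15:79347270-79347519 and chr15:79348152-79348401 on the plus strand. The most upstream of the 3 Maff promoters in the table held none of the motifs and is not shown.
Jun: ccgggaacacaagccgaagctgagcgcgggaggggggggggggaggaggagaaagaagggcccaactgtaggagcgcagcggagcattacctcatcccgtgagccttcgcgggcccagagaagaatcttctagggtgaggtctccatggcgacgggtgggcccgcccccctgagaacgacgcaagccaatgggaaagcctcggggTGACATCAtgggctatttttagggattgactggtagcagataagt
Maff, middle start: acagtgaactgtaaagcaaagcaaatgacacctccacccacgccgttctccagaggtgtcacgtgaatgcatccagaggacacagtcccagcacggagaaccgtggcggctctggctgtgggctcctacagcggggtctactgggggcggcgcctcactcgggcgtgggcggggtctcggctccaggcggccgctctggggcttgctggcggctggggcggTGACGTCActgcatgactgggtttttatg
Maff, downstream start: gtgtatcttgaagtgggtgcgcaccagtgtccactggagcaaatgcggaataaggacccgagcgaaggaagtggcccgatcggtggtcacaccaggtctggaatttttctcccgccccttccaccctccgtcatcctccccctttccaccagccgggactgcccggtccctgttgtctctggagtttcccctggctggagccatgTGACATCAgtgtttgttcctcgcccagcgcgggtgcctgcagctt

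The Jun promoter holds TGACATCA at 45 to 38 bases before its start, a variant of the cyclic AMP response element (CRE) that differs from the classic AP-1 site. The downstream Maff promoter holds the same 8 letters at the same distance, and the middle one holds the full CRE, TGACGTCA, at 29 to 22 bases before its start. Over 300-base windows (250 bases before to 50 after a start), both strands of 11 promoters of 9 members were searched, with no entry for Fosl1 in the promoter table. TGACATCA, or TGATGTCA on the other strand, was in 2 of the 11 and in 3.62% of all 32851 promoters. The CRE was in 1 of the 11 and in 1.79% of all, and the AP-1 site TGACTCA, or TGAGTCA, was in 0 of the 11 and in 5.20% of all. The TEAD motif GGAATG, or CATTCC, was in 0 of the 11 and in 14.7% of all, and the CArG box, the motif of serum response factor, in 0 of the 11 and in 1.63% of all. A match of letters does not show binding.

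Among the Fos family, which cannot pair with itself and binds DNA with a Jun partner, Fos (chromosome 12, 85473890 to 85477273) is the founding immediate early member. It was at 754 CPM in the lowest, 1259 CPM in the median and 1751 CPM in the highest KPF library, and at 1500, 794 and 562 CPM in KPYYF libraries 4449, 4891 and 4938. The groups overlapped, since 4449 was the second highest of all 9 libraries and 4938 the lowest. The means were 1279 ± 333 CPM (SD, n = 6) and 952 ± 488 CPM (SD, n = 3), and the log2 fold change of -0.43 (95% interval -1.15 to 0.30) had an adjusted p of 0.590 in edgeR's test.

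Fosb (chromosome 7, 19302696 to 19310051), an immediate early paralog of Fos, had the same 4 libraries at the top in the same order as Fos: KPF 4515, KPYYF 4449, KPF 4504s and KPF 4601. It ran from 368 to 1956 CPM with a median of 1084 CPM in KPF libraries and stood at 1468, 451 and 432 CPM in KPYYF libraries 4449, 4891 and 4938. Those last values are below 5 of the 6 KPF libraries, and the groups overlapped. Its log2 fold change was -0.47 (95% interval -1.56 to 0.62, adjusted p = 0.712). Without KPYYF library 4449 it was -1.30, or 2.46-fold lower (adjusted p = 0.210).

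Fosl1 (chromosome 19, 5447547 to 5455946), which encodes Fra-1, the Fos protein tied to invasive carcinoma, had the only log2 fold change above 0 among the 10, 0.43 (95% interval -0.48 to 1.35, adjusted p = 0.682 in edgeR's test). It was at 24.8 CPM in the lowest, 50.3 in the median and 94.1 in the highest KPF library, and at 55.0, 52.9 and 100 CPM in KPYYF libraries 4449, 4891 and 4938. Library 4938 was thus highest for Fosl1 and lowest for Fos. Without it the log2 fold change of Fosl1 was 0.07 (adjusted p = 0.968). Fosl1 overlaps Ccdc85b on the opposite strand over 2767 bases, and the strand setting of the counting is not given in the sources used here.

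The ratio of Fosl1 to Fos counts, which needs no scaling between libraries, ran from 0.0208 to 0.0537 in KPF libraries. It was 0.0367, 0.0666 and 0.178 in KPYYF libraries 4449, 4891 and 4938, so that 2 of the 3 lay above every KPF library. On the log2 scale the mean ratio was -4.74 ± 0.52 (SD, n = 6) in KPF and -3.72 ± 1.15 (SD, n = 3) in KPYYF libraries, a difference of 1.02 that is smaller than the SD of the KPYYF libraries. No test was run on it, since the members were chosen.

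Fosl2 (chromosome 5, 32135801 to 32157842), which encodes Fra-2, was at 144 CPM in the lowest, 213 in the median and 669 in the highest KPF library, and at 292, 270 and 176 CPM in KPYYF libraries 4449, 4891 and 4938. All KPYYF libraries lay inside the KPF range, and the highest library, KPF 4601, was more than 2 times the next, KPF 4504s at 297 CPM. On the log2 scale the difference was -0.20 (95% interval -1.20 to 0.80, adjusted p = 0.892). Without library 4601 it was 0.28 (adjusted p = 0.757), so its sign rests on the library with the most macrophage and lymphoid RNA.

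Jun (chromosome 4, 95049034 to 95052222), a gene of 1 exon and the Jun protein with the strongest activity of its own, was at 461 CPM in the lowest, 930 in the median and 1306 in the highest KPF library. In KPYYF libraries 4449, 4891 and 4938 it was at 639, 736 and 724 CPM. The KPYYF libraries sat inside the KPF range and close together, with a ratio of highest to lowest of 1.15 against 2.83 over the 6 KPF libraries. The log2 fold change of -0.34 (95% interval -1.02 to 0.34) had an adjusted p of 0.662 in edgeR's test and stayed between -0.47 and -0.17 when libraries were left out singly. The interval includes no change, and its upper bound equals a 1.27-fold higher level.

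Junb (chromosome 8, 84974484 to 84978718), which often acts against Jun in growth control, was at 364 CPM in the lowest, 676 in the median and 1162 in the highest KPF library, and at 589, 474 and 375 CPM in KPYYF libraries 4449, 4891 and 4938. The KPYYF libraries lay in the lower part of the KPF range. This gave a log2 fold change of -0.54 (95% interval -1.28 to 0.20, adjusted p = 0.483), and -0.32 without library 4601, where Junb was highest. The log2 ratio of Jun to Junb was 0.36 ± 0.62 (SD, n = 6) in KPF and 0.57 ± 0.42 (SD, n = 3) in KPYYF libraries, a difference smaller than either SD. Junb overlaps Prdx2 on the opposite strand over 351 bases, and Prdx2 had 578 to 2979 counts per library.

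Jund (chromosome 8, 70698949 to 70700616), the Jun gene that is usually expressed steadily rather than induced, also has 1 exon. It was at 169 CPM in the lowest, 276 in the median and 410 CPM in the highest KPF library, and at 130, 76.6 and 124 CPM in KPYYF libraries 4449, 4891 and 4938. No KPYYF library reached the lowest KPF library, which gave the smallest p that an exact permutation test over the 84 assignments of 9 libraries allows, 0.0119 (two-sided). The means were 279 ± 81.9 CPM (SD, n = 6) and 110 ± 29.2 CPM (SD, n = 3). The log2 fold change was -1.34 (standard error 0.33, 95% interval -2.04 to -0.64), or 2.54-fold lower in KPYYF, with an adjusted p of 0.0674 in edgeR's test, which misses the threshold. The adjusted p was 0.00293 in the Wald test of DESeq2 and 0.0388 in edgeR without a filter on low counts. It was 0.0604 in limma-voom, and 0.0733 to 0.206 in edgeR when libraries were left out singly. With 4504h and 4504s, which the permutation p takes as independent, summed to 1 sample, edgeR gave 0.0926. In the 6 libraries with over 1000 reads of Xist it gave 0.243. Without library 4601, where Jund was highest, the change was -1.18 on the log2 scale. The antisense Gm11175 overlaps Jund and had at most 12 counts.

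**Figure D2:**
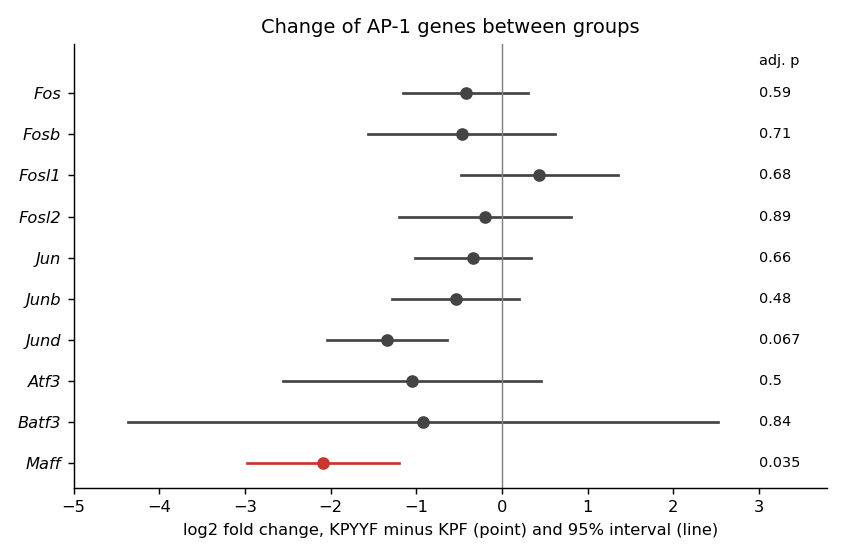
The log2 fold change of KPYYF against KPF (points, horizontal axis) with its 95% interval (lines) for each of the 10 AP-1 genes, with the adjusted p of edgeR's quasi-likelihood test at the right. The intervals of Jund and Maff lie below 0, those of the other 8 include 0, and Maff, in red, has an adjusted p under 0.05.

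Atf3 (chromosome 1, 191170296 to 191218039), a stress-induced member of the network that often represses its targets, split the KPYYF libraries. It was at 205 CPM in the lowest, 397 in the median and 920 in the highest KPF library, and at 495, 67.7 and 77.9 CPM in KPYYF libraries 4449, 4891 and 4938. Libraries 4891 and 4938 lay below every KPF library, and 4449 was the second highest of all 9. For all 3, the log2 fold change was -1.05 (95% interval -2.56 to 0.46, adjusted p = 0.500 in edgeR's test). Without library 4449 it was -2.60, or 6.08-fold lower, with an adjusted p of 0.0407. Over all genes, leaving out 4449 moved the number called from 112 to 198 lower and from 43 to 75 higher. For Atf3 in all 9 libraries, limma-voom with quality weights gave -2.05 (adjusted p = 0.0924). Library 4449 differed from the other 2 KPYYF libraries in its acinar RNA (2379 CPM against 24.1 and 34.3 CPM) and its epithelial markers (1879 CPM against 622 and 857 CPM), and their part in the level of Atf3 was not tested.

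Batf3 (chromosome 1, 191097847 to 191108945) is best known as a factor of cross-presenting dendritic cells and is the neighbor of Atf3, 61.4 kb away. It had few reads, with 8, 44, 25, 7, 2 and 34 counts in KPF libraries 4269, 4435, 4504h, 4504s, 4515 and 4601 and 1, 1 and 31 counts in KPYYF libraries 4449, 4891 and 4938. The groups overlapped, and the log2 fold change of -0.92 had a 95% interval of -4.36 to 2.53 (adjusted p = 0.843 in edgeR's test). Without library 4938 it was -4.18 (adjusted p = 0.414). Of 8 dendritic cell markers, Clec9a had 0 counts in every library and Xcr1 reached 1.75 CPM, in KPF 4601. In that library, with 34 counts of Batf3, H2-Ab1 was at 856, Itgax at 110 and Ccr7 at 41.1 CPM. Zbtb46, another of the 8, had its highest KPF level, 19.5 CPM, in 4435, with 44 counts of Batf3. Flt3 was at 6.69 CPM in KPYYF 4938, with 31 counts of Batf3, and at most 1.31 CPM elsewhere. The 8 markers summed to 52.7, 79.8, 57.0, 85.4, 31.4 and 1021 CPM in KPF libraries 4269, 4435, 4504h, 4504s, 4515 and 4601. In KPYYF libraries 4449, 4891 and 4938 they summed to 92.0, 20.4 and 53.3 CPM. Of the 1021 CPM in KPF 4601, 856 were of H2-Ab1. KPF 4435 had the most counts of Batf3, and KPYYF 4449 had 1. The part of dendritic cells in Batf3 was not tested.

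Maff (chromosome 15, 79346621 to 79359076), a small MAF protein that binds DNA but has no activation domain of its own, was at 41.1 CPM in the lowest, 54.6 in the median and 116 in the highest KPF library, and at 13.4, 13.5 and 17.9 CPM in KPYYF libraries 4449, 4891 and 4938. The 3 KPYYF libraries lay close together and below every KPF library (two-sided exact permutation p = 0.0119, the smallest possible). Library 4449, which stood with the upper KPF libraries for Fos, Fosb and Atf3, was the lowest of all 9 for Maff. A heatmap of the study draws Maff among transcription factors picked from these libraries, so its direction here is not independent evidence. In edgeR's test, which gave a 4.26-fold lower level in KPYYF and an adjusted p of 0.0351, Maff kept an adjusted p under 0.05 without KPF library 4269, 4504h or 4601. It was 0.0561 without KPF 4435, 0.0754 without KPF 4504s, 0.0552 without KPF 4515, 0.0589 without KPYYF 4449, 0.105 without KPYYF 4891 and 0.0893 without KPYYF 4938. Its log2 fold change stayed between -2.24 and -1.80 in these fits. It was -1.86 in the 6 libraries with over 1000 reads of Xist, where the adjusted p was 0.136. With 4504h and 4504s, which the permutation p takes as independent, summed to 1 sample, the adjusted p was 0.0521, and limma-voom gave 0.0758.

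Across libraries the members fell into patterns that crossed the groups. Fos, Fosb, Atf3 and Maff were highest in KPF library 4515, which also had the highest epithelial marker level (9161 CPM). Fosl2, Junb, Jund and Batf3 were highest in KPF library 4601. In that library the macrophage markers Lyz2 and Csf1r were at 5996 and 409 CPM, against at most 1031 and 55.5 CPM in the other 8, and the part of such cells in these levels was not tested. KPF library 4269 was the lowest of all 9 for Fosb, Fosl1 and Jun. The summed level of the 10 genes was 2758 to 7278 CPM in KPF libraries and 5182, 2936 and 2592 CPM in KPYYF libraries 4449, 4891 and 4938.

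**Figure D3:**
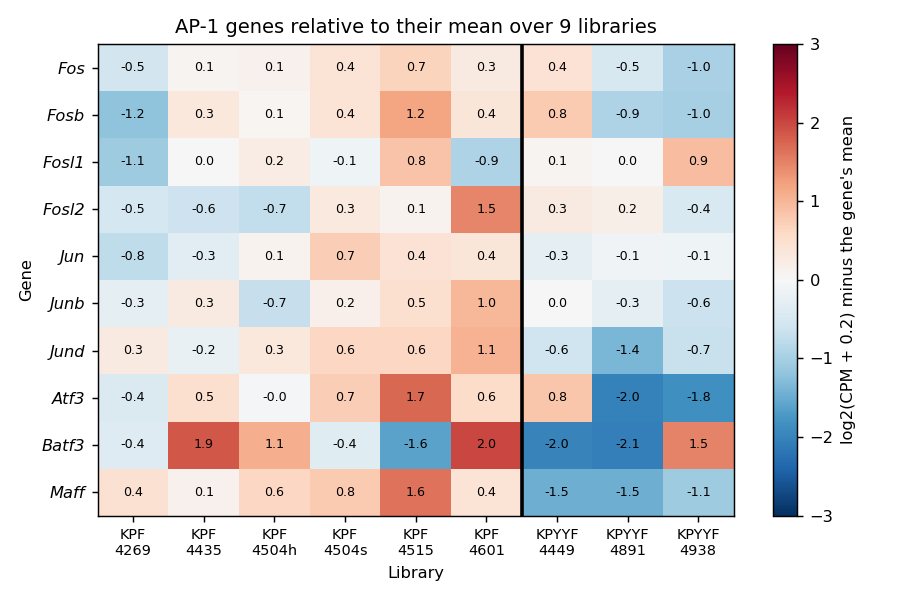
Each AP-1 gene (rows) in each library (columns, KPF left and KPYYF right of the black line) as log2(CPM + 0.2) minus the mean of the gene over the 9 libraries, with red above and blue below that mean. KPYYF library 4449 is above the mean for Fos, Fosb and Atf3 and below it for Jund and Maff, and KPF library 4601 is highest for Fosl2, Junb, Jund and Batf3.

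The genes whose log2 CPM, centered over the 9 libraries, ran closest to Jun were Tuba4a, Dnajc5 and Sec22a, with mean absolute differences of 0.16, 0.17 and 0.18 where the median of 8876 genes was 0.65. For Fos they were Tnfaip8, Tox4 and Ogfod3 (0.16, 0.19 and 0.21, median 0.69). For Fosl1 they were Map2k3, Rcc1 and Eif3b (0.17, 0.23 and 0.25, median 0.73). These are descriptions over 9 libraries that share their scaling.

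Of 15 related bZIP genes that pair or compete with AP-1 proteins, 12 could be tested, 10 had a log2 fold change below 0 and 2 above, and the median was -0.76. In edgeR's test 0 passed the adjustment. At an unadjusted p under 0.05, 2 of the 12 were lower, where 10% of all genes were. DESeq2 called 1 lower, against 6.58% of all genes, and limma-voom 0. The 2 were Atf7, a CRE-binding factor that pairs with Jun, and Mafk, a small MAF protein, named after their values were seen. Atf7 was at 26.9 to 42.4 CPM in KPF libraries and 17.9, 12.6 and 11.0 CPM in KPYYF libraries 4449, 4891 and 4938, without overlap, as in 5.18% of all genes (log2 fold change -1.29, adjusted p = 0.123). Mafk was at 16.9 to 77.5 CPM in KPF and 23.3, 2.62 and 7.23 CPM in KPYYF libraries (log2 fold change -1.53, adjusted p = 0.305). Mafg, the third small MAF gene, had the highest log2 fold change of the list, 0.37 (adjusted p = 0.503), with 137 to 212 CPM in KPF and 235, 183 and 243 CPM in KPYYF libraries.

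Of 16 kinases and factors upstream of AP-1, 15 were tested, with a median log2 fold change of 0.05, 7 below and 8 above 0. None passed the adjustment in edgeR's test. An unadjusted p under 0.05 was found for 0, where 10% of all genes were lower and 6.1% higher by it. DESeq2 and limma-voom called 0. Map3k1, a kinase above JNK, had the lowest log2 fold change, -0.54 (adjusted p = 0.497). Elk1, a partner of serum response factor on the Fos promoter, had the highest, 0.91 (adjusted p = 0.389), and Mapk3, which encodes ERK1, had -0.17 (adjusted p = 0.830). Of 7 genes for the turnover or dephosphorylation of the pathway's proteins, all 7 were tested, with a median of -0.06. With edgeR 0 passed at an adjusted p. At an unadjusted p 0 passed, where 10% of all genes were lower and 6.1% higher. DESeq2 and limma-voom called 0 at an adjusted p. The log2 fold changes of the 7 ran from -0.72 for Itch, a ubiquitin ligase of Jun proteins, to 0.51 for Cop1, which encodes another ligase of Jun. Dusp1, a phosphatase of MAP kinases that is also an immediate early gene, had -0.49 (adjusted p = 0.448).

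The other immediate early genes were read beside the AP-1 genes, since digestion of tissue is known to induce many of them. Of 18, 17 were tested, with 9 log2 fold changes below and 8 above 0 and a median of -0.10. In edgeR's test 0 passed the adjustment. At an unadjusted p under 0.05, 1 was lower and 0 higher, where 10% and 6.1% of all genes were. The 1 was Klf6, a zinc finger factor, with -0.86 (adjusted p = 0.292). DESeq2 and limma-voom called 0. Egr1, the most abundant, was at 1268 to 3197 CPM in KPF and 2954, 2916 and 1381 CPM in KPYYF libraries 4449, 4891 and 4938 (log2 fold change 0.21, adjusted p = 0.815). Nr4a2, an orphan nuclear receptor, had the highest log2 fold change, 0.95 (adjusted p = 0.517). The mean log2 CPM of the list was 7.75 ± 0.70 (SD, n = 6) in KPF and 7.78 ± 0.62 (SD, n = 3) in KPYYF libraries. It was highest in KPF 4601 (8.45), KPYYF 4449 (8.39), KPF 4515 (8.28) and KPF 4504s (8.20), the 4 libraries in which Fos, Fosb and Atf3 were highest. The part of handling in these levels was not tested.

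**Figure D4:**
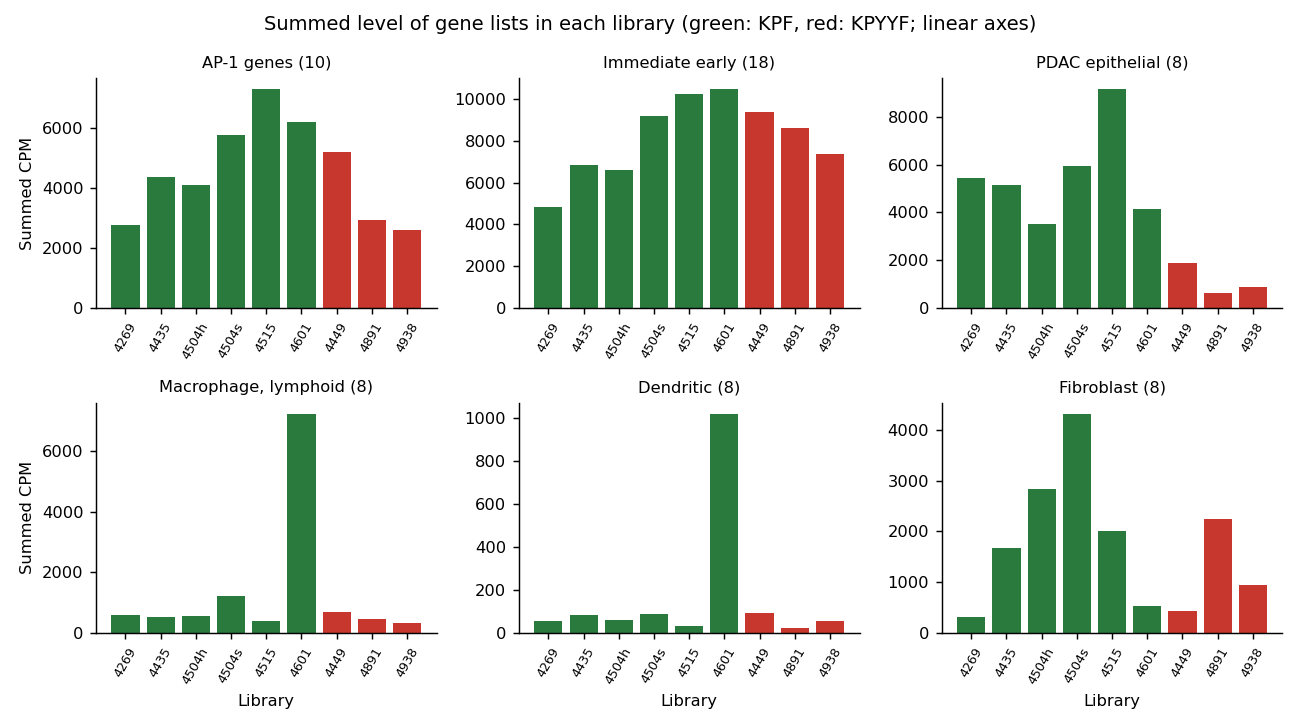
Summed CPM (vertical axes, linear from 0) of the 10 AP-1 genes, the other immediate early genes and 4 lists of cell type markers in each library, KPF in green and KPYYF in red. Library 4601 has the tallest bars for macrophage and lymphoid and for dendritic markers, and the epithelial bars of the 3 KPYYF libraries are below those of all KPF libraries.

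Of 18 genes known as targets of AP-1 in tumor or stromal cells, all 18 were tested, with 11 log2 fold changes below and 7 above 0 and a median of -0.55. In edgeR's test 0 passed the adjustment, and at an unadjusted p under 0.05, 5 were lower, among them Hbegf, Plaur and Vegfa, and 2 were higher (Ereg and Mmp3), where 10% and 6.1% of all genes were. DESeq2 called 3 lower and 2 higher, against 6.58% and 1.91% of all genes, and limma-voom 0. Ereg, which encodes the EGF receptor ligand epiregulin, was at 7.39 to 88.2 CPM in KPF and 92.6, 124 and 469 CPM in KPYYF libraries, without overlap, as in 3.92% of all genes (log2 fold change 2.20, adjusted p = 0.141). Mmp3, a matrix metalloproteinase, had the highest log2 fold change, 4.54 (adjusted p = 0.149), and was at 430 CPM in library 4891 against 6.41 and 34.0 CPM in the other 2 KPYYF libraries and 0.195 to 17.3 CPM in KPF libraries. Spp1, which encodes osteopontin, was the most abundant, with 1178 to 4032 CPM in KPF and 8568, 930 and 2408 CPM in KPYYF libraries (log2 fold change 0.75, adjusted p = 0.597).

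**Figure D5:**
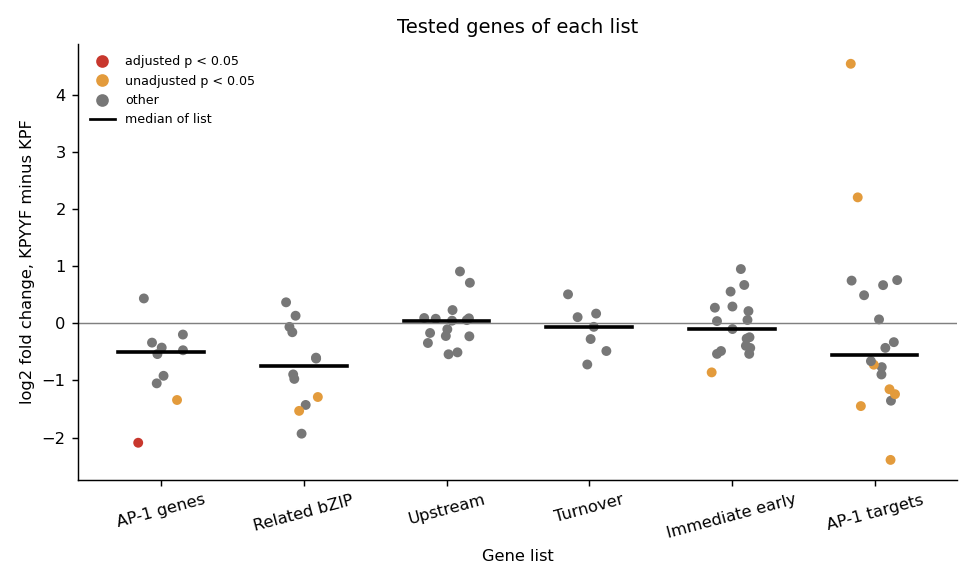
The log2 fold change of KPYYF against KPF (vertical axis) of every tested gene (1 point each) in the AP-1 genes and 5 other lists, with a black line at the median of each list, red for an adjusted p under 0.05 and orange for an unadjusted p under 0.05. Maff is the red point, and the highest point is Mmp3, an AP-1 target, at 4.54.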

How the data were processed

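RNA was extracted from FACS-sorted GFP+ cells of KPF mice (6 libraries) and Tm+ cells of KPYYF mice (3 libraries), and sequenced as 3′ end libraries (QuantSeq Forward), per the labels. The authors deposited, for each library, raw read counts per Ensembl gene without normalization. The submitters' processing notes name STAR, HTSeq and mm10, with versions not given in the sources used here. The study's methods describe BeadChip hybridization and DESeq2, whereas the files hold whole-number counts. Genes took 37.3 to 42.0% of the reads of each file, and summary lines for reads on no gene were left out. A 3′ library gives about one tag per transcript, so a CPM does not depend on transcript length, and splice forms cannot be told apart.

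Identifiers were matched to symbols in GENCODE M21 (47224 of 47643), whose GRCm38 positions are given. Genes whose counts summed to 100 or more (14105) were compared with edgeR 4.0.16 in R 4.3.3 (TMM, robust quasi-likelihood, no covariates), with a threshold of 0.05 on p values adjusted over all of them. All tests were two-sided. Standard errors were derived from the F statistic. CPM use TMM factors (0.833 to 1.08), and log2 CPM a prior count of 2. Limits set by 3 counts cover counting error only. The common biological coefficient of variation was 0.825. Alternatives were DESeq2 1.42.0, limma-voom 3.58.1 with quality weights, RLE and upper quartile scaling, no filter, filterByExpr, 4504h and 4504s summed, the 6 libraries with over 1000 Xist reads, and each library left out. The code was tested on simulated data.

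The members and gene lists were chosen with earlier results of these data known. Named in each other list are genes past the adjusted threshold, the highest and lowest log2 fold change and the highest mean CPM, and for Fos, Jun and Fosl1 the 3 genes (mean of at least 10 CPM) with the smallest mean absolute difference of centered log2 CPM. Atf7, Mafk, Ereg, Hbegf, Plaur, Vegfa, Csf1r, Clec9a, Xcr1, Itgax and Flt3 were named after their values were seen. Some genes that this rule names, and an allele that both groups carry, are not reported here. Figures were drawn with matplotlib 3.10.9.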

Additional observations from a re-analysis of the deposited data

Results flagged for a closer look

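A library that stood far from the others of its group was looked for in 42 genes over the 6 KPF libraries, on the scale of log2 CPM with a prior count, as a gap to the nearest library of more than 0.625 of the group's range. Chance gives such a gap in about 1 of 20 groups, and it was found in 2 genes, neither of them an AP-1 gene. H2-Ab1, an MHC class II gene of antigen-presenting cells, was at 856 CPM in KPF library 4601 and at 19.7 to 55.9 CPM in the other 5 (a gap of 0.724 of the log2 range). Cdh5, which encodes the endothelial VE-cadherin, was at 0 CPM in KPF library 4269, and the other 5 libraries had 2.86 to 9.45 CPM (a gap of 0.697 of the log2 range). On CPM itself, a scale added after the data were seen, 11 of the 42 genes passed the same limit, 7 of them in library 4601. They included H2-Ab1 but not Cdh5, and 3 AP-1 genes, each by its highest library: Fosl2 in KPF 4601 (a gap of 0.710 of the range), Maff in KPF 4515 (0.687) and Atf3 in KPF 4515 (0.637).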

How the results depend on the processing

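Log2 fold changes of 9 of the 10 AP-1 genes kept their sign under all 17 alternatives. The exception was Fosl2, at -0.20 with all libraries, which was 0.31 in the 6 libraries with over 1000 Xist reads and ranged from -0.34 to 0.28 with single libraries left out (0.28 without KPF 4601). The number of AP-1 genes called lower in KPYYF, 1 with edgeR, was 2 (Jund and Maff) with DESeq2 or with no filter on low counts. It was 0 with limma-voom, with 4504h and 4504s summed and in the 6 libraries with over 1000 Xist reads. With single libraries left out it was 0 to 1, and without KPYYF 4449 the 1 gene was Atf3 and not Maff. No alternative called an AP-1 gene higher. Over all genes, 112 were lower and 43 higher. DESeq2 gave 928 and 269, no filter 219 and 88, and the 6 libraries 31 and 6. limma-voom gave 44 lower, and summing 4504h and 4504s gave 25 higher. Leaving out single libraries gave 13 (without KPYYF 4938) to 198 (without KPYYF 4449) lower and 6 (without KPF 4435) to 75 (without KPYYF 4449) higher. In the related bZIP, upstream, turnover, immediate early and AP-1 target lists, where edgeR called 0 genes, DESeq2 called 6 of the 68 distinct genes tested. Among all genes DESeq2 called 6.58% lower and 1.91% higher. The cause of these differences was not tested. No paired analysis was possible because the labels give mouse numbers and no replicate number shared between the groups. The 3 KPYYF libraries and the counts of Batf3 limit what could be detected.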
